A study of Mus musculus with 12 samples.

Results

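The transcripts described here are those of Bmp2, Bmp3, Bmp4, Bmp6, Bmp7, Bmp8b, Gdf5, Gdf10, Inhbb and Grem1, which are 10 of the 22180 mouse genes measured. They were chosen by name, with earlier results of these data known, so counts of them set beside all genes below carry no test. Each was read from the brightest probe set, over the 12 arrays, among the probe sets annotated with that symbol alone. The name BMP and GDF ligands describes most of them, but Inhbb encodes the beta B subunit of activins and inhibins and Grem1 encodes gremlin 1, a secreted protein that binds BMPs and keeps them from their receptors.

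BMPs and GDFs are secreted dimers of the TGF-beta superfamily. They are cut from larger precursors by proprotein convertases and bind pairs of type I and type II serine/threonine kinase receptors, which phosphorylate SMAD proteins that enter the nucleus and switch on targets such as the Id genes. In fat, BMP7 is known for driving precursor cells to the brown lineage, BMP4 for committing precursors to adipocytes, and BMP8B for being made by brown adipocytes themselves and for raising their response to sympathetic signals.

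Male mice, 10 weeks of age and fed standard chow, either lacked Zbtb7b (KO) or were wild type (WT). Zbtb7b encodes a zinc-finger transcription factor. The 4 groups of 3 arrays each were KO and WT mice exposed to 4 °C for 4 h (cold) and KO and WT mice at 22 °C (room temperature). The labels used here give no allele, promoter, Cre driver or strain background for the knockout. Brown adipose tissue gave the RNA for the whole-transcript arrays, and a value below is the log2 RMA signal, on which a difference of 1 is a 2-fold difference in signal. Signals of different genes come from different probes, so no gene's level is set against another's.

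The titles call the arrays biological replicates, whereas the free-text descriptions call them pools and name liver and an Nrg4 knockout. The number of animals behind an array is therefore unknown. A p-value sets a difference against the spread between arrays within groups, which limma pooled over the 4 groups and drew towards that of other genes. Markers of brown fat were high and those of liver low: Ucp1, the uncoupling protein of brown adipocytes, read 11.55 to 12.95 on the 12 arrays, while 6 hepatocyte genes averaged 1.97 to 2.48 per array. Zbtb7b itself read 2.96, 3.38 and 3.01 in KO cold arrays against 4.36, 4.26 and 4.63 in WT cold arrays. It read 3.62, 3.50 and 3.30 in KO room temperature arrays against 4.47, 4.52 and 4.76 in WT room temperature arrays. The KO arrays lay below the WT arrays at both temperatures, and the KO minus WT difference was −1.30 ± 0.16 in the cold and −1.11 ± 0.16 at room temperature (SE, limma adjusted p = 0.00365 and 0.00904). The labels do not say which exons the knockout lacks, so it is not known if these probes read them. Array medians over all probe sets ran from 2.63 to 2.83. Bmp2 and, on most arrays, Inhbb read near them, and Grem1 read mostly below them. Bmp8b lay below every array's median on all room temperature arrays, at 1.95 to 2.56, and on KO cold replicate 2, at 2.18. The data used here carry no detection call.

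The promoters of Bmp8b and Grem1 are shown, because these are the members that passed a comparison of cold with room temperature and have a promoter in the RefSeq table used (assembly GRCm38.p6). Each is the 250 bases before the annotated start, read 5′ to 3′ on the gene's own strand. The Bmp8b window lies at chr4:123104911-123105160 on the plus strand and the Grem1 window at chr2:113758649-113758898 on the minus strand. Capitals mark the core of the BMP response element, GGCGCC.
Bmp8b: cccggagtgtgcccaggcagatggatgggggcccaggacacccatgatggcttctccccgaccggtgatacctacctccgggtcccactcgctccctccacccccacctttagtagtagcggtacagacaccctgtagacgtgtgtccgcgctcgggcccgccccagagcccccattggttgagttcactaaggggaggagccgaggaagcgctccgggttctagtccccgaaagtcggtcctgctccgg
Grem1: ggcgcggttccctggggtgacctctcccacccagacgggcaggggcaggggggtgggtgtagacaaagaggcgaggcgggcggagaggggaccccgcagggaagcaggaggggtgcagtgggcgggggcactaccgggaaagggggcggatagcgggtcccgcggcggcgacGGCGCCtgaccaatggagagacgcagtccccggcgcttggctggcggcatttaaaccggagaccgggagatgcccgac

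The promoters of 6 of the 10 genes were in the table and were searched on both strands for the letters of 4 elements. The Grem1 window held 1 match to GGCGCC, which began 78 bases before the start and which 9.59% of 32851 mouse promoters of this length also held. The Bmp4 and Bmp6 windows held 1 match each to the E-box CACGTG, found in 6.02% of promoters. None of the 6 windows held the cAMP response element TGACGTCA (1.55% of promoters) or its first bases TGACG, which the longer element contains (17.8%). A match of letters is a description of the window and not a site of binding.

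In the cold, Gdf5 fell in both genotypes, Bmp2 and Grem1 rose in KO mice, and Bmp8b rose in WT mice. In KO mice 3 of the 10 genes passed the test, where 19.2% of all genes passed. Of the 3, 2 were higher and 1 was lower in the cold, where 8.34% of all genes were higher and 10.8% lower. In WT mice 2 of the 10 passed, where 17.4% of all genes passed. Of the 2, 1 was higher and 1 lower, where 9.39% of all genes were higher and 7.98% lower. The cold and room temperature arrays did not overlap for 4 of the 10 genes in KO mice, as for 31.6% of all genes, and for 2 of the 10 in WT mice, as for 36.8% of all genes. The median difference of the 10 genes, cold minus room temperature, was 0.19 in KO mice and −0.02 in WT mice, beside medians of 0.00 and −0.02 over all genes. The KO and the WT cold comparisons share no arrays. No member passed the interaction test of whether the cold difference depended on genotype, where 0.0271% of all genes passed. A call in only KO or only WT mice therefore does not show a difference between genotypes. With both genotypes pooled 2 of the 10 passed, Gdf5 and Bmp8b, where 27.2% of all genes passed. In bulk tissue, fewer cells of a type and less RNA per cell cannot be told apart, and this holds for each result below.

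**Figure D1:**
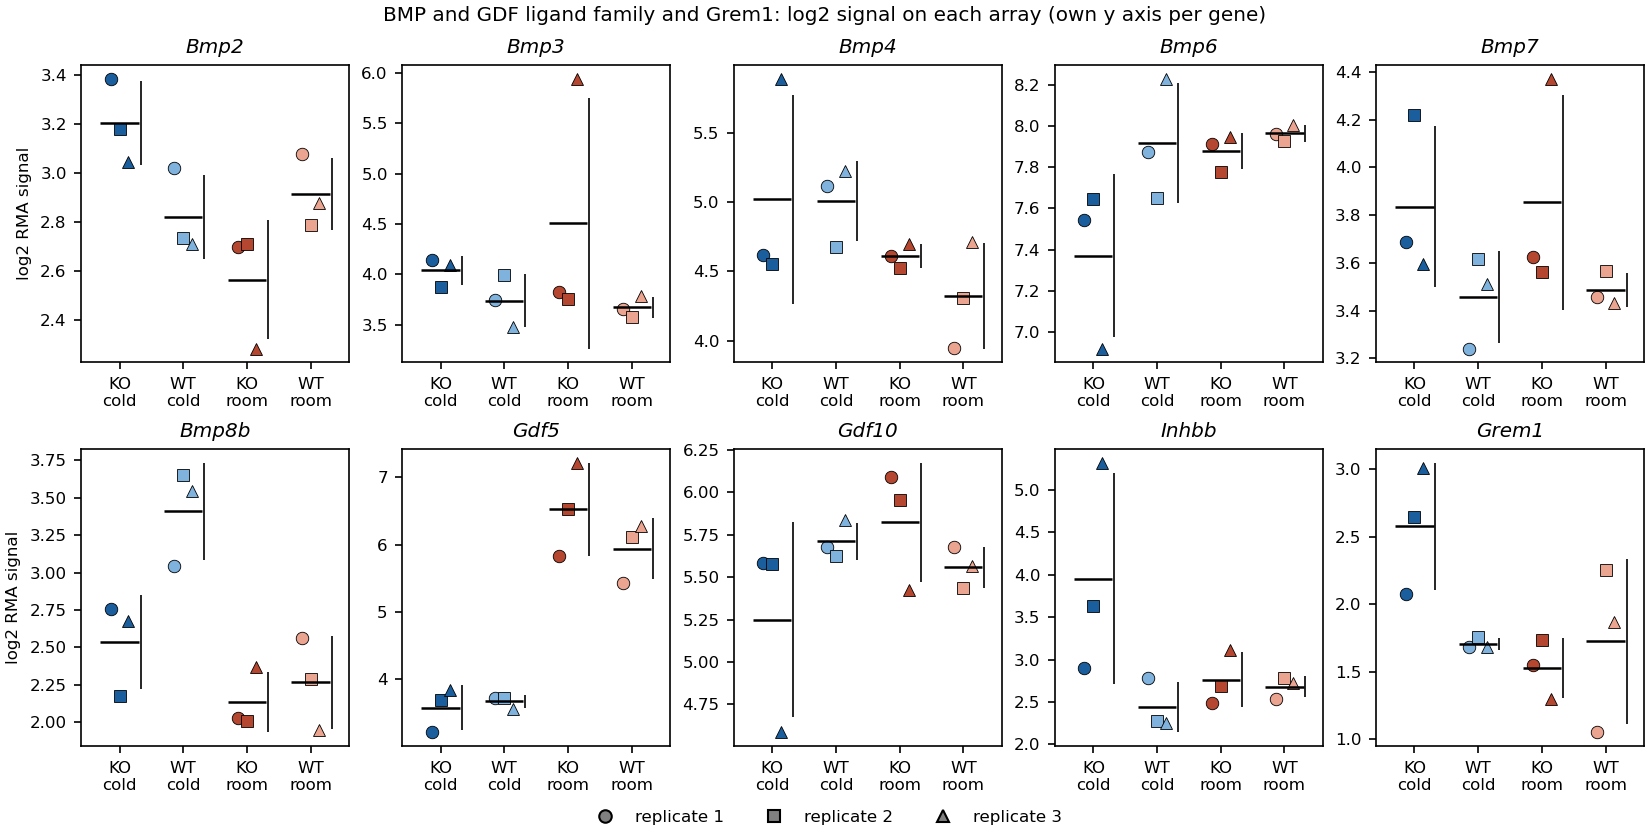
Log2 RMA signal of each of the 10 genes on each of the 12 arrays, with a y axis of its own for each gene. Points are arrays, horizontal lines are group means and vertical lines are the SD (n = 3). All cold arrays of Gdf5 lie below 3.9, and all its room temperature arrays lie above 5.4.

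Gdf5 encodes a ligand best known for its part in the making of joints. It read 3.21, 3.70 and 3.84 in KO cold arrays against 5.83, 6.53 and 7.22 in KO room temperature arrays. It read 3.73, 3.73 and 3.57 in WT cold arrays against 5.42, 6.12 and 6.28 in WT room temperature arrays. In each genotype the cold arrays all lay below the room temperature arrays, with a gap wider than the range within either group. Gdf5 fell by 2.94 ± 0.31 in KO mice and by 2.27 ± 0.31 in WT mice on the log2 scale (SE, n = 3 per group, limma adjusted p = 7.27e-05 and 0.000447). The cold difference in KO mice minus that in WT mice was −0.68, with a 95% interval from −1.64 to 0.29 (adjusted p = 0.616). KO and WT mice were not told apart at either temperature, with a KO minus WT difference of −0.09 ± 0.31 in the cold and 0.58 ± 0.31 at room temperature (adjusted p = 0.930 and 0.525).

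The fall rests on 1 of 2 Gdf5 probe sets. The other averaged 1.40 over the 12 arrays, below every array's median, and differed by −0.12 between cold and room temperature in KO mice and by −0.05 in WT mice (adjusted p over all probe sets = 0.768 and 0.906). The annotation places Gdf5 between Uqcc1 and Cep250, with no gene overlapping it. The fall in each genotype passed in all 12 fits that left out 1 array.

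Bmp8b, the BMP made by brown adipocytes, read 2.76, 2.18 and 2.68 in KO cold arrays against 2.03, 2.01 and 2.37 in KO room temperature arrays. These groups overlapped, with a difference of 0.40 ± 0.22 (SE, limma adjusted p = 0.248). In WT mice it read 3.04, 3.65 and 3.54 in cold arrays against 2.56, 2.29 and 1.95 at room temperature. These groups did not overlap, and Bmp8b rose by 1.14 ± 0.22 in WT mice (adjusted p = 0.00317), a call that held in all 12 fits that left out 1 array. Over both genotypes the cold difference was 0.77 ± 0.15 (adjusted p = 0.00216).

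Every KO cold array of Bmp8b lay below every WT cold array. The KO minus WT difference in the cold was −0.87 ± 0.22 (adjusted p = 0.0896), and that at room temperature was −0.13 ± 0.22 (adjusted p = 0.882). The interaction, which tests whether the cold difference itself depended on genotype, was −0.74 with a 95% interval from −1.41 to −0.07 before adjustment (adjusted p = 0.425). The group means were 2.54 ± 0.31 in KO cold, 3.41 ± 0.32 in WT cold, 2.14 ± 0.20 in KO room temperature and 2.27 ± 0.31 in WT room temperature arrays (SD, n = 3). The WT cold arrays thus lay above all others, and the arrays of the other groups overlapped with each other. The nearest paralogue, Bmp8a, differed by 0.22 ± 0.28 between cold and room temperature in KO mice and by 0.17 ± 0.28 in WT mice (adjusted p = 0.683 and 0.772). The annotation overlaps Bmp8b with Oxct2b, and whether signal of that gene reaches the Bmp8b probes was not tested. Other annotated genes overlap Bmp3, Bmp4, Bmp7 and Bmp6, Txndc5 among those at Bmp6, and this was not tested for their probes either.

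**Figure D2:**
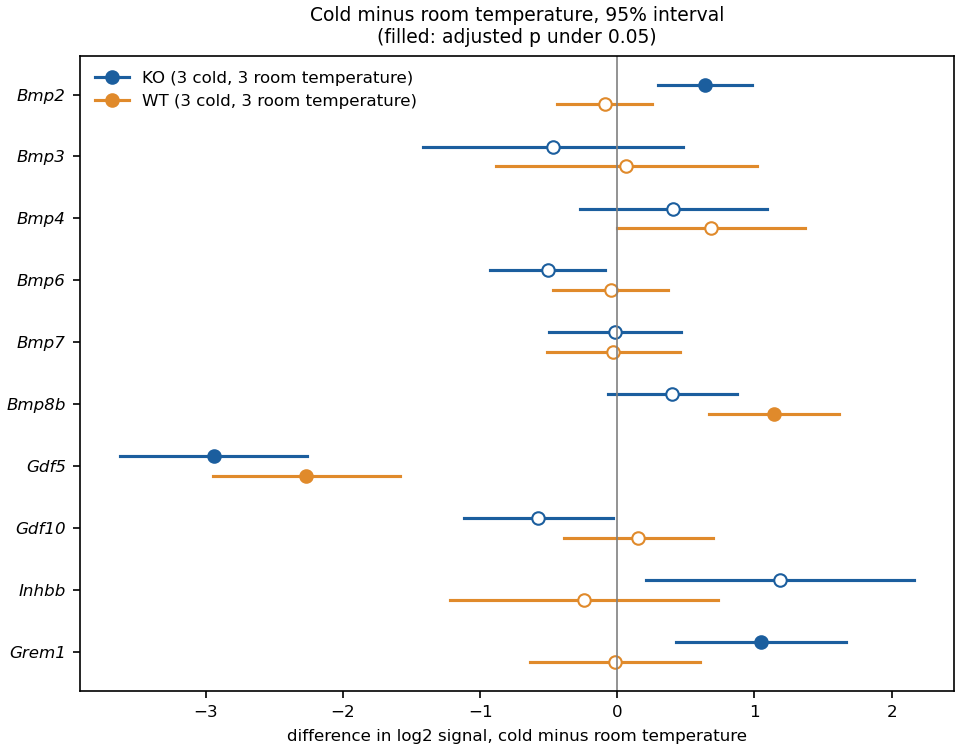
Difference in log2 signal, cold minus room temperature, for each of the 10 genes in KO (blue) and WT (orange) mice. Points are differences of means of 3 arrays, bars are 95% intervals of the fit before adjustment, and filled points passed at an adjusted p under 0.05. Gdf5 lies at −2.94 in KO and −2.27 in WT mice, Bmp8b is filled in WT mice, and Bmp2 and Grem1 are filled in KO mice.

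Bmp2 encodes a ligand of bone and cartilage formation. It read 3.39, 3.18 and 3.05 in KO cold arrays against 2.70, 2.71 and 2.28 in KO room temperature arrays. The groups did not overlap, and Bmp2 rose by 0.64 ± 0.16 in KO mice (SE, limma adjusted p = 0.0131). In WT mice it read 3.02, 2.73 and 2.71 in cold arrays against 3.08, 2.79 and 2.88 at room temperature, a difference of −0.09 ± 0.16 (adjusted p = 0.775). The rise in KO mice no longer passed without KO room temperature replicate 3, the array with the lowest Bmp2 signal, where it was 0.50 (adjusted p = 0.0566), nor in a fit to the 6 KO arrays alone (adjusted p = 0.0532).

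Grem1, the BMP antagonist, read 2.07, 2.64 and 3.01 in KO cold arrays against 1.55, 1.74 and 1.30 in KO room temperature arrays. The groups did not overlap, and Grem1 rose by 1.05 ± 0.29 in KO mice (adjusted p = 0.0217). In WT mice it read 1.68, 1.76 and 1.68 in cold arrays against 1.05, 2.25 and 1.87 at room temperature, where the room temperature arrays lay on both sides of the cold arrays. The WT difference was −0.02 ± 0.29 (adjusted p = 0.981). The rise in KO mice no longer passed without KO cold replicate 2 or 3 (adjusted p = 0.0626 and 0.0779), nor without KO room temperature replicate 1 or 3 (adjusted p = 0.0521 and 0.0798). All Grem1 signals in WT and KO room temperature mice and in WT cold mice lay below the arrays' medians.

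Inhbb, the activin beta B subunit, read 2.90, 3.63 and 5.32 in KO cold arrays against 2.49, 2.69 and 3.11 in KO room temperature arrays. KO cold replicate 3 held the highest signal of all 12 arrays by a wide margin, and the 2 groups overlapped. The difference was 1.19 ± 0.45 (adjusted p = 0.0905), and it was 1.71 without KO cold replicate 1 (adjusted p = 0.0108) and 0.50 without KO cold replicate 3 (adjusted p = 0.209). In WT mice Inhbb read 2.78, 2.28 and 2.25 in cold arrays against 2.54, 2.78 and 2.72 at room temperature, a difference of −0.24 ± 0.45 (adjusted p = 0.797).

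Between genotypes no member passed the test at either temperature. In the cold, 0 of 10 passed, where 0.911% of all genes passed, and 5 of 10 had an unadjusted p under 0.05, as did 14.4% of all genes. Bmp2, Inhbb and Grem1 had every KO cold array above every WT cold array, while Bmp6, Bmp8b and Gdf10 had every KO cold array below. Those 6 of 10 genes compare with 20.6% of all genes whose KO and WT cold arrays did not overlap, 9.55% with KO above and 11.1% with KO below. The KO cold arrays also enter the cold comparison in KO mice, so the directions in that comparison are not independent of these.

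**Figure D3:**
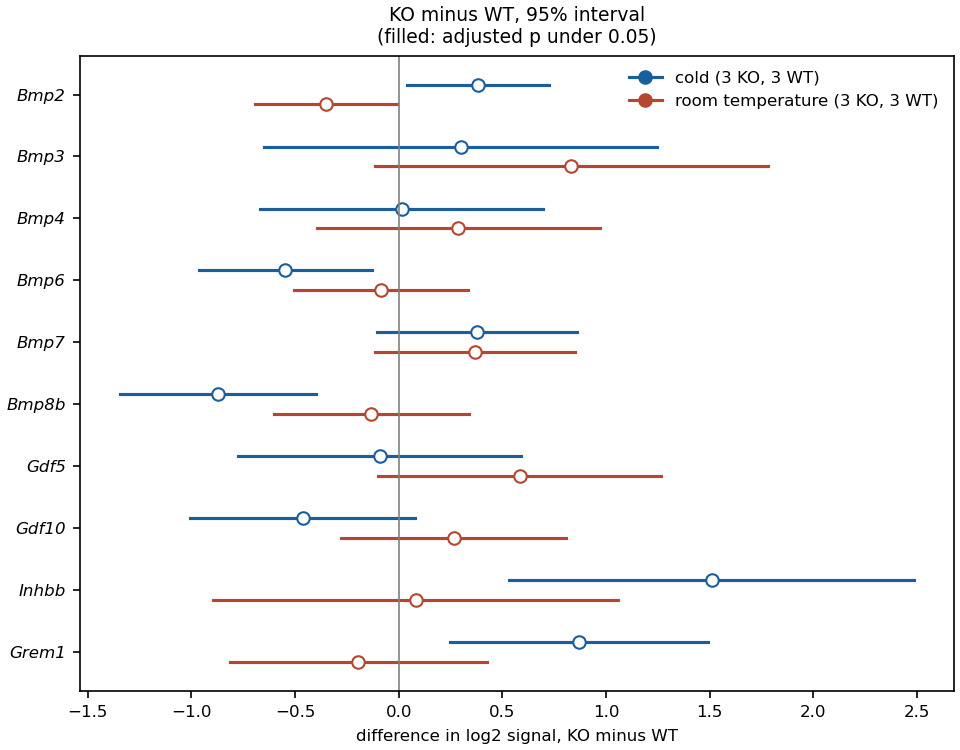
Difference in log2 signal, KO minus WT, for each of the 10 genes in the cold (blue) and at room temperature (red). Points are differences of means of 3 arrays and bars are 95% intervals of the fit before adjustment. No point is filled, since no gene passed at an adjusted p under 0.05, and Inhbb in the cold lies farthest from 0, at 1.51.

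In the cold, the KO minus WT difference was 1.51 ± 0.45 for Inhbb, 0.87 ± 0.29 for Grem1 and 0.38 ± 0.16 for Bmp2 (SE, limma adjusted p = 0.146, 0.189 and 0.291). Each of these 3 genes was higher in KO mice on 3 of 3 arrays. The Inhbb difference depended on single arrays: it was 2.03 and passed without KO cold replicate 1 (adjusted p = 0.0337), and it was 0.83 without KO cold replicate 3 (adjusted p = 0.180). Bmp6 encodes a ligand known for signalling iron stores to the liver. It read 7.54, 7.65 and 6.92 in KO cold arrays against 7.87, 7.65 and 8.23 in WT cold arrays. The nearest arrays of the 2 groups met at 7.65 to the decimals shown, and the difference was −0.55 ± 0.19 (adjusted p = 0.216) and, without KO cold replicate 3, −0.32. Gdf10, known in cell culture as a brake on adipocyte formation, read 5.58, 5.57 and 4.59 in KO cold arrays against 5.68, 5.62 and 5.83 in WT cold arrays. Its difference was −0.46 ± 0.25 with KO cold replicate 3 included (adjusted p = 0.426) and −0.13 without it.

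At room temperature 0 of 10 genes passed between genotypes, where 0.550% of all genes passed. Bmp2 alone had an unadjusted p under 0.05, as did 11.4% of all genes, and Bmp2 alone had groups that did not overlap, as did 17.0% of all genes. All 3 KO arrays of Bmp2 lay below all 3 WT arrays, with a difference of −0.35 ± 0.16 (adjusted p = 0.432). The order of the genotypes for Bmp2 was thus opposite at the 2 temperatures, and the interaction was 0.73 ± 0.22 (adjusted p = 0.298). Of the 10 genes, 0 passed the interaction test, where 0.0271% of all genes passed, and 4 had an unadjusted p under 0.05, as did 10.5% of all genes. Besides Bmp2 these were Bmp8b, Inhbb at 1.43 ± 0.63 and Grem1 at 1.07 ± 0.40 (adjusted p = 0.458 and 0.387). With both temperatures pooled 0 of 10 passed between KO and WT mice, where 1.63% of all genes passed, and 4 had an unadjusted p under 0.05, as did 14.7% of all genes.

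The remaining members passed no comparison. Bmp4, whose product commits precursors to the adipocyte lineage, read 4.62, 4.55 and 5.89 in KO cold arrays against 4.61, 4.52 and 4.70 in KO room temperature arrays. It read 5.12, 4.68 and 5.23 in WT cold arrays against 3.95, 4.31 and 4.71 in WT room temperature arrays. In both genotypes the cold and room temperature arrays overlapped, and the cold difference was 0.41 ± 0.31 in KO mice and 0.68 ± 0.31 in WT mice (adjusted p = 0.442 and 0.173). Without KO cold replicate 3 the difference in KO mice was −0.03. The WT difference kept its size and passed without KO cold replicate 3, an array of neither group that adds to the shared spread (adjusted p = 0.0315).

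Bmp7, the ligand known for brown adipocyte formation, lay between 3.24 and 4.37 on the 12 arrays. Its cold difference was −0.02 ± 0.22 in KO mice and −0.03 ± 0.22 in WT mice (adjusted p = 0.971 and 0.959), with 95% intervals inside −0.51 to 0.46. Its KO minus WT difference was 0.38 ± 0.22 in the cold and 0.37 ± 0.22 at room temperature, and over both temperatures it was 0.37 ± 0.16 (adjusted p = 0.286). It was 0.18 in the cold without KO cold replicate 2, and without KO room temperature replicate 3 it was 0.11 at room temperature and 0.24 over both temperatures. Bmp3, which opposes bone-forming BMPs, lay between 3.48 and 4.14 on 11 arrays and at 5.94 on KO room temperature replicate 3. It passed no comparison, with adjusted p-values between 0.431 and 0.949. Bmp6 and Gdf10 did not pass in the cold comparisons: in KO mice the difference was −0.51 ± 0.19 for Bmp6 and −0.58 ± 0.25 for Gdf10 (adjusted p = 0.0914 and 0.142), and in WT mice it was −0.05 ± 0.19 and 0.15 ± 0.25 (adjusted p = 0.916 and 0.761). Without KO cold replicate 3 the differences in KO mice were −0.28 and −0.24.

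Single arrays often held the extreme signals. KO cold replicate 3 had the highest signal of all 12 arrays for Bmp4, Inhbb and Grem1 and the lowest for Bmp6 and Gdf10, whereas it was highest for 9.19% and lowest for 9.94% of all genes. That array also had the highest mean of 6 neutrophil markers, at 4.05 against 1.70 to 2.81 on the other 11 arrays, and of 8 macrophage markers, at 7.33. KO room temperature replicate 3 was highest for Bmp3, Bmp7 and Gdf5 and lowest for Bmp2. The mean of 14 skeletal muscle markers ran from 4.89 to 8.82 in KO cold arrays, 5.72 to 8.32 in WT cold arrays, 3.55 to 9.07 in KO room temperature arrays and 3.13 to 7.01 in WT room temperature arrays. With that mean as a covariate the number of members called stayed at 3 in KO mice and 2 in WT mice in the cold comparisons. The mean of 10 brown adipocyte markers ran from 10.10 to 10.16 in KO cold arrays, 10.15 to 10.24 in WT cold arrays, 8.49 to 8.78 in KO room temperature arrays and 9.26 to 9.39 in WT room temperature arrays, so it moved with temperature and, at room temperature, with genotype. The mean of the macrophage markers ran from 6.58 to 7.33 in KO cold arrays, 6.58 to 6.88 in WT cold arrays, 6.73 to 7.01 in KO room temperature arrays and 5.85 to 6.25 in WT room temperature arrays, so the WT room temperature arrays lay below all others. The mean of 4 white adipocyte markers ran from 6.37 to 7.04 in KO cold arrays, 6.64 to 8.25 in WT cold arrays, 7.96 to 8.29 in KO room temperature arrays and 7.43 to 7.54 in WT room temperature arrays. WT cold replicate 2 gave the 8.25, and the other WT cold arrays lay at 6.64 and 6.74. The part of the neutrophil, macrophage, brown adipocyte and white adipocyte markers in the results was not tested.

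For each member that passed a test, the genes with the most similar pattern over the 4 group means were listed, taken from 8167 genes that averaged 5 or more. Likeness was the root mean square distance of the 4 means after each gene's own mean was removed, in log2 units, and carries no test. The nearest to Gdf5 were Rasl12 at 0.0590, Mtmr14 at 0.133 and Dbp at 0.209. The nearest to Bmp8b were Rnf6 at 0.0448, Fbxo33 at 0.0650 and Nhlrc2 at 0.0665. Bmp2 lay nearest to Osbpl11 at 0.0202, Taf4b at 0.0219 and Kyat3 at 0.0276, and Grem1 to Apbb3 at 0.0985, Cpne8 at 0.101 and Actg1 at 0.107.

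Of 82 other genes listed for the pathway, 75 were measured: further ligands, receptors, SMADs, antagonists, targets and processing proteases. In the cold 20 of the 75 passed in KO mice, 9 higher and 11 lower, which was 26.7% against 19.2% of all genes. In WT mice 13 passed, 8 higher and 5 lower, which was 17.3% against 17.4% of all genes. The median difference over the 75 genes was 0.031 in KO mice and 0.074 in WT mice. In KO mice Bmp5, Tgfbr2, Tgfbr3, Eng, Rgmb, Smad7, Bmper, Id4 and Pcsk5 passed in all 12 fits that left out 1 array, and the other 11 lost the call in 1 to 10 of them, with adjusted p up to 0.184. In WT mice Tgfbr2, Tgfbr3, Eng, Fst, Bambi and Pcsk5 passed in all 12, and the other 7 lost the call in 2 to 5, with adjusted p up to 0.108. With both genotypes pooled 27 of the 75 passed, 13 higher and 14 lower, which was 36.0% against 27.2% of all genes. Lefty2 (−0.37 ± 0.12), Acvr2b (−0.41 ± 0.13), Smurf2 (0.31 ± 0.11), Fstl1 (0.42 ± 0.12) and Cer1 (0.33 ± 0.11) passed there and in neither genotype alone. Lefty2, Smurf2 and Cer1 each lost that call in 9 of the 12 fits without 1 array, Acvr2b in 7 and Fstl1 in 1, with adjusted p up to 0.103. Lefty2 lay between 1.17 and 2.02 and Cer1 between 1.35 and 2.21 on the 12 arrays, below every array's median.

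**Figure D4:**
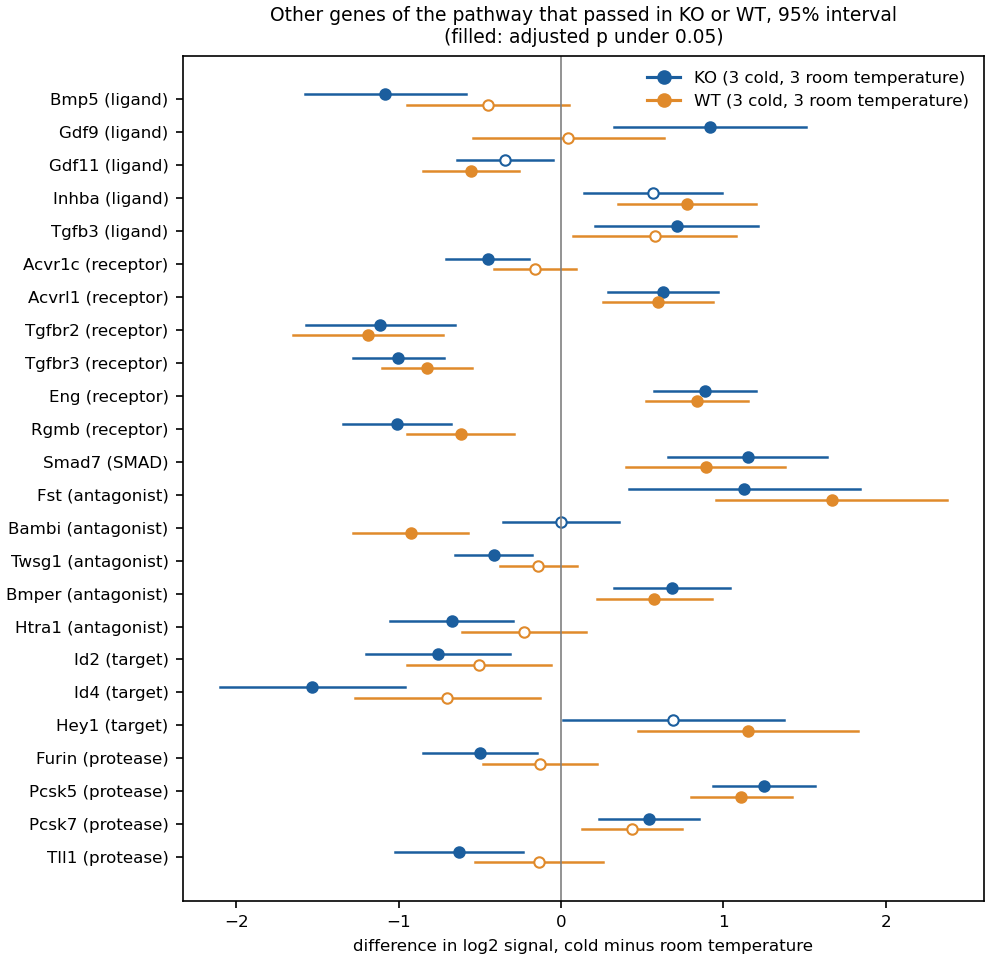
Difference in log2 signal, cold minus room temperature, for the 24 other pathway genes that passed in KO (blue) or WT (orange) mice, with the role of each in brackets. Points are differences of means of 3 arrays, bars are 95% intervals of the fit before adjustment, and filled points passed at an adjusted p under 0.05. Tgfbr2, Tgfbr3 and Rgmb lie below 0 and Eng, Smad7, Fst and Pcsk5 above 0 in both genotypes.

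Among the other ligands, 22 of 24 were measured. Of these, 3 passed in KO mice and 2 in WT mice, where 19.2% and 17.4% of all genes passed. Bmp5, a ligand of skeletal growth, averaged 3.97 ± 0.14 in KO cold arrays and 5.05 ± 0.33 in KO room temperature arrays (SD, n = 3), and fell by 1.08 ± 0.23 (SE, limma adjusted p = 0.00538). Its difference in WT mice was −0.45 ± 0.23 (adjusted p = 0.220), and the interaction was −0.63 ± 0.32 (adjusted p = 0.521). Gdf9, an oocyte factor, rose by 0.92 ± 0.27 and Tgfb3 by 0.71 ± 0.23 in KO mice (adjusted p = 0.0322 and 0.0496), with the call lost in 5 and 9 of the 12 fits without 1 array. Gdf9 averaged 2.59 over the 12 arrays, near the array medians. In WT mice, where it did not pass, Tgfb3 averaged 7.50 in cold and 6.93 in room temperature arrays. In WT mice Inhba, the activin beta A subunit, rose by 0.78 ± 0.19 and Gdf11 fell by 0.56 ± 0.14 (adjusted p = 0.0157 and 0.0140), with the call lost in 3 and 2 of those fits. In KO mice, where neither passed, Inhba averaged 3.19 in cold and 2.63 in room temperature arrays, and Gdf11 3.79 and 4.13. Over both genotypes Tgfb3 (0.64 ± 0.16), Inhba (0.67 ± 0.14) and Gdf11 (−0.45 ± 0.10) passed (limma adjusted p = 0.0103, 0.00274 and 0.00362). Each kept that call in all 12 fits without 1 array.

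Receptors and co-receptors, 14 of 16 measured, changed in both directions. In KO mice 2 rose and 4 fell, where 8.34% of all genes rose and 10.8% fell. In WT mice 2 rose and 3 fell, where 9.39% of all genes rose and 7.98% fell. Tgfbr2, the type II receptor for TGF-beta, averaged 7.78 ± 0.47 in KO cold arrays and 8.89 ± 0.16 in KO room temperature arrays, and 7.37 ± 0.02 in WT cold arrays and 8.56 ± 0.26 in WT room temperature arrays (SD, n = 3). It fell by 1.11 ± 0.21 in KO mice and by 1.19 ± 0.21 in WT mice (SE, adjusted p = 0.00285 and 0.00212). The co-receptor Tgfbr3 fell by 1.00 ± 0.13 and 0.83 ± 0.13 in KO and WT mice, and Rgmb, a BMP co-receptor, fell by 1.01 ± 0.15 and 0.62 ± 0.15. The Rgmb call in WT mice was lost in 2 of the 12 fits without 1 array and with the skeletal muscle marker mean as a covariate, where the difference was −0.54 (adjusted p = 0.0519). Eng, the endoglin of endothelial cells, rose by 0.89 ± 0.14 and 0.84 ± 0.14, and Acvrl1, the endothelial type I receptor that binds the same ligands, rose by 0.63 ± 0.16 and 0.60 ± 0.16. Of 8 endothelial markers, 6 passed at an adjusted p under 0.05 in KO mice, 2 higher and 4 lower in the cold, where 19.2% of all genes passed, and 3 passed in WT mice, 1 higher and 2 lower, where 17.4% of all genes passed. Their part in the Eng and Acvrl1 results was not tested. The main BMP receptors did not pass: Bmpr1a differed by −0.05 ± 0.15 in KO mice and 0.08 ± 0.15 in WT mice, and Bmpr2 by 0.38 ± 0.21 and 0.02 ± 0.21 (adjusted p between 0.256 and 0.973 for the 4 values).

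Acvr1c, the type I receptor ALK7 of mature fat cells, was the pathway gene that passed between genotypes. It lay between 7.02 and 7.11 in KO cold arrays against 7.74 to 7.96 in WT cold arrays, and between 7.44 and 7.56 in KO room temperature arrays against 7.89 to 8.15 in WT room temperature arrays. The KO arrays all lay below the WT arrays at both temperatures. The KO minus WT difference was −0.79 ± 0.12 in the cold (SE, limma adjusted p = 0.0114), −0.50 ± 0.12 at room temperature (adjusted p = 0.0958) and −0.64 ± 0.08 over both temperatures (adjusted p = 0.00290). It was the 1 of the 75 pathway genes to pass in the cold and over both temperatures, or 1.33% of them, where 0.911% and 1.63% of all genes passed. At an unadjusted p under 0.05 there were 12 of the 75 in the cold and 16 over both temperatures, as for 14.4% and 14.7% of all genes. At room temperature 0 of the 75 passed, where 0.550% of all genes passed, and 5 had an unadjusted p under 0.05, as did 11.4% of all genes. For the interaction 0 of the 75 passed, where 0.0271% of all genes passed, and 4 had an unadjusted p under 0.05, as did 10.5% of all genes. The call of Acvr1c in the cold was lost without WT cold replicate 2 (adjusted p = 0.0526). That array read 7.83 for Acvr1c, between the other WT cold arrays at 7.74 and 7.96. It had the highest mean of white adipocyte markers among the WT cold arrays, and their part in the call was not tested. The ligands of the Acvr1c product include activin B, the dimer of the Inhbb product.

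Among 15 measured antagonists, 4 passed in KO mice, 2 higher and 2 lower, where 19.2% of all genes passed. In WT mice 3 passed, 2 higher and 1 lower, where 17.4% of all genes passed. Fst encodes follistatin, which binds activins and some BMPs. It averaged 6.62 ± 0.54 in KO cold arrays and 5.49 ± 0.40 in KO room temperature arrays, and 6.62 ± 0.14 in WT cold arrays and 4.96 ± 0.64 in WT room temperature arrays (SD, n = 3). Fst rose by 1.13 ± 0.33 in KO mice and by 1.67 ± 0.33 in WT mice (SE, adjusted p = 0.0296 and 0.00389), with the call in KO mice lost in 4 of the 12 fits without 1 array. Bmper, a secreted BMP modulator, rose by 0.68 ± 0.16 and 0.57 ± 0.16. The Bmper call in WT mice was lost in 5 of those fits and with the muscle marker mean as a covariate, where the difference was 0.54 (adjusted p = 0.0792). Bambi encodes a pseudoreceptor without a kinase that dampens the pathway. Its cold difference was −0.00 ± 0.16 in KO mice (adjusted p = 0.999), and it fell by 0.93 ± 0.16 in WT mice (adjusted p = 0.00200), with an interaction of 0.93 ± 0.23 (adjusted p = 0.229). In KO mice Twsg1 fell by 0.41 ± 0.11 and Htra1 by 0.67 ± 0.17. Neither passed in WT mice, where Twsg1 averaged 8.10 in cold and 8.24 in room temperature arrays, and Htra1 6.75 and 6.98. Over both genotypes Twsg1 and Htra1 passed, at −0.28 ± 0.08 and −0.45 ± 0.12 (limma adjusted p = 0.0175 and 0.0161). Noggin and chordin, the classical BMP antagonists, did not pass, with differences between −0.07 and 0.47 for Nog and Chrd in the 2 genotypes.

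Of the inhibitory SMADs, Smad7 rose by 1.15 ± 0.23 in KO mice and by 0.89 ± 0.23 in WT mice (adjusted p = 0.00342 and 0.0166), and Smad6 differed by 0.01 ± 0.21 and −0.36 ± 0.21 (adjusted p = 0.989 and 0.300). Of 10 measured target genes, 3 passed in each genotype, where 19.2% of all genes passed in KO mice and 17.4% in WT mice. Of the targets, 1 was higher and 2 were lower in KO mice, and 2 were higher and 1 was lower in WT mice. Smad7 is on this list as well, and so is Bambi. Id1, the target most often used to read BMP signalling, differed by 0.10 ± 0.37 in KO mice and 0.07 ± 0.37 in WT mice (adjusted p = 0.897 and 0.932). Id4 averaged 2.86 ± 0.47 in KO cold arrays and 4.39 ± 0.41 in KO room temperature arrays (SD, n = 3). In KO mice Id4 fell by 1.53 ± 0.26 and Id2 by 0.76 ± 0.20, and in WT mice Hey1 rose by 1.15 ± 0.31 (SE, adjusted p = 0.00153, 0.0205 and 0.0236). In the other genotype these 3 did not pass, but their means went the same way. Id4 averaged 3.39 in WT cold and 4.09 in WT room temperature arrays, and Id2 8.97 and 9.48. Hey1 averaged 6.38 in KO cold and 5.69 in KO room temperature arrays. Over both genotypes all 3 passed, at −1.12 ± 0.19, −0.63 ± 0.14 and 0.92 ± 0.22 (limma adjusted p = 0.000617, 0.00548 and 0.00733), also in all 12 fits without 1 array.

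Among the 7 proteases that process ligands or their inhibitors, 4 passed in KO mice, 2 in each direction, where 19.2% of all genes passed. In WT mice 1 passed, where 17.4% of all genes passed. Pcsk5, a proprotein convertase, averaged 7.34 ± 0.06 in KO cold arrays and 6.09 ± 0.30 in KO room temperature arrays, and 6.90 ± 0.05 in WT cold arrays and 5.79 ± 0.06 in WT room temperature arrays (SD, n = 3). It rose by 1.25 ± 0.14 in KO mice and by 1.11 ± 0.14 in WT mice (SE, adjusted p = 0.000110 and 0.000284), and in both genotypes it passed in all 12 fits without 1 array. In KO mice Pcsk7 rose by 0.54 ± 0.14, while Tll1 fell by 0.63 ± 0.18 and Furin by 0.50 ± 0.16, Furin with an adjusted p of 0.0484 that was lost in 10 of those 12 fits. None of these passed in WT mice. There Pcsk7 averaged 6.24 in cold and 5.80 in room temperature arrays, Tll1 3.05 and 3.18, and Furin 8.52 and 8.65. Over both genotypes Pcsk7 (0.49 ± 0.10) and Tll1 (−0.38 ± 0.13) passed (limma adjusted p = 0.00272 and 0.0438), Tll1 with the call lost in 8 of the 12 fits.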

How the data were processed

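Total RNA of 12 brown fat samples was converted to biotin-labelled cDNA from 400 ng per array, per the labels' protocols. The deposited values are log2 signals per probe set that the authors made with RMA, and oligo, RMA and limma are named in the submitters' processing notes without versions. The log2 scale was judged from the range and the near-equal medians of the arrays. Raw scans were not used here, and the number of arrays sets the precision.

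Of 41345 probe sets, 23521 carried exactly 1 symbol in the platform annotation, 1814 several and 16010 none. The brightest probe set per gene left 22180 genes, of which 1082 had several probe sets. With limma 3.58.1 in R 4.3.3, a model with 1 mean for each group took in all 12 arrays, and 7 two-sided comparisons were made with lmFit and eBayes, which was tested on simulated data. An adjusted p under 0.05 (Benjamini-Hochberg over all genes) counts as passing, and SEs and 95% intervals come from the same fit. Groups came from the titles, and the number of per-sample columns left unused was 0.

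The 10 genes and the gene lists were chosen with earlier results of these data known. The text names all 10, every listed pathway gene that passed in a comparison, and the 3 nearest genes of each member that passed. Bmp8a, Bmpr1a, Bmpr2, Smad6, Nog, Chrd and Id1 passed in no comparison and were named for their known roles, outside that rule and after their values were seen. Listed pathway genes with no value under the symbol searched were not analysed here. Arrays with the same replicate number did not deviate together more than others. The correlation of their deviations from the group means ran from −0.54 to 0.45 over 18 pairs (median −0.11). Over 36 pairs with different numbers it ran from −0.56 to 0.63 (median 0.07). Alternatives covered probe sets, a signal filter, normalization, centring, spread, array weights, a replicate block, the arrays fitted, a muscle covariate and leaving out each array.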

Additional observations from a re-analysis of the deposited data

Results flagged for a closer look

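Bmp2 stood out because all 3 KO arrays lay above all 3 WT arrays in the cold and below all 3 WT arrays at room temperature. The KO minus WT difference was 0.38 in the cold and −0.35 at room temperature, so the cold value exceeded the room temperature value by 0.73 on the log2 scale. The interaction had an unadjusted p of 0.00654 in limma and an adjusted p of 0.298 over all genes.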

How the results depend on the processing

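The limits of these data are 3 arrays per group, an unknown number of animals behind each array, and low signals for some members. Signals lay near the array median for Bmp2 and Inhbb, mostly below it for Grem1, and below it at room temperature for Bmp8b. Of 2920 recomputed values for 139 gene results, 2754 kept their direction or stayed without a call, 154 lost a call and 12 gained one. No called difference changed sign, and 54 differences that passed in neither fit did. With a mean signal of at least 5 required, Bmp6 and Gdf10 were the only members tested. No cold comparison then tested Bmp2, Bmp8b, Gdf5 or Grem1, and 1 member passed in KO mice and 0 in WT mice or over both genotypes. The 1 was Bmp6 (adjusted p = 0.0452). With array weights 1 member passed between KO and WT mice in the cold, Bmp8b at −1.01 (adjusted p = 0.0458). The muscle covariate ended the WT cold call of Rgmb and Bmper (adjusted p = 0.0519 and 0.0792).

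Counts over all genes moved more. With the arrays of the compared groups alone they were 32 for KO against WT in the cold, 37 at room temperature and 2737 for cold in KO mice, against 202, 122 and 4254 with all arrays. The signal filter gave 397 for KO against WT in the cold, 613 over both temperatures and 26 for the interaction, against 202, 361 and 6. Array weights gave 307 for KO against WT in the cold and 22 for the interaction. The interaction also gave 3 with probe sets averaged per gene, 19 with a trended and robust spread and 12 with the muscle covariate.

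Leaving out 1 array gave 0 to 1 members for KO against WT in the cold, 1 to 4 for cold in KO mice, 2 to 3 for cold in WT mice and 2 to 3 for cold over both genotypes. Over all genes it gave 3200 to 4320 for cold in KO mice, 2676 to 4308 for cold in WT mice, 5220 to 6099 for cold over both genotypes, 36 to 289 for KO against WT in the cold, 50 to 164 at room temperature, 162 to 488 over both temperatures and 3 to 20 for the interaction. The lowest count in the cold came without WT cold replicate 1 and at room temperature without KO room temperature replicate 2. In an alternative chosen after seeing the data, leaving out 1 array gave 6 to 8 members with groups that did not overlap for KO against WT in the cold, 2 to 3 at room temperature, 4 to 8 for cold in KO mice and 2 to 4 for cold in WT mice. Over all genes these shares were 28.4% to 33.3%, 26.1% to 29.3%, 39.2% to 42.9% and 43.7% to 47.2%, each above its share with all arrays, since groups with an array left out cannot overlap more.

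The replicate numbers did not pair the arrays. With the replicate block 4 members passed for cold over both genotypes, where Bmp2 and Bmp4 joined Bmp8b and Gdf5 (adjusted p = 0.0494 and 0.0361). Without the block Bmp8b and Gdf5 passed that comparison, where 27.2% of all genes passed. The share of all genes that passed it with the block is not given here. The block left the number of members called as it was in the other 6 comparisons and gave 140 genes for KO against WT in the cold, 91 at room temperature, 4072 for cold in KO mice and 3660 for cold in WT mice.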
